A study of Homo sapiens with 66 samples.

Results

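The response of human DLD-1 cells to 2 h without the mRNA export receptor NXF1 was followed in 6 of the 66 RNA-seq libraries of the series. These are 3 libraries of AID-FLAG-NXF1 cells given 1 mM auxin for 2 h and 3 of the same cells left untreated, taken by their labels, and every gene in the count files was considered. DLD-1 is a colorectal adenocarcinoma line. In the tagged cells (AID-NXF1 below) an auxin-inducible degron (AID) and a FLAG epitope are fused to NXF1, and the ubiquitin ligase adaptor TIR1 is expressed from the RCC1 gene, so that auxin sends the tagged protein to the proteasome. The tag and TIR1 are present in both groups. Libraries of AID-TPR cells (2 h), AID-GANP cells (3 h) and untagged parental DLD-1 cells (2 h), each with 3 auxin and 3 untreated libraries of its own, are used only for comparison. So are 3 libraries of AID-TPR cells given actinomycin D for 2 h without auxin, and the 3 untreated AID-TPR libraries whose replicate labels carry the word old.

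NXF1, bound to its small partner NXT1, carries most messenger RNAs through the nuclear pore. It is loaded onto the RNA by adaptors of the THO/TREX complex and by TREX-2, whose scaffold GANP docks at the pore basket that TPR forms. Small nuclear RNAs, ribosomal subunits and transfer RNAs leave the nucleus through other receptors of the Ran system. Total RNA was sequenced here, from nucleus and cytoplasm together, so the values are whole-cell RNA levels and not export rates.

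The 6 libraries held between 27590622 and 37765744 counts, and no count fell on any of the 37 mitochondrially encoded genes. Auxin acts on the tagged protein, and the amount of NXF1 protein was not measured in these files. NXF1 RNA lay at 125, 146 and 137 CPM (counts scaled to a common library size with edgeR's TMM factors, given here and below for replicates 1 to 3) with auxin and at 119.7, 127 and 119 in untreated cells. The groups overlapped, and the log2 fold change of auxin over untreated was 0.15 ± 0.06 (SE, adjusted p = 0.0897). NXF1 RNA was nonetheless higher with auxin in each same-numbered pair. With the replicate number as a block in the edgeR fit the value was 0.15 (adjusted p = 0.00257), a small rise that was still not called. Of 10 epithelial markers of colon, 8 were measured among the tested genes, and their summed level was 13320 to 14110 CPM with auxin and 11760 to 13010 CPM without. CDX1 had at most 1 count in any library and LGALS4 at most 20. Of 12 markers of mesenchyme, endothelium, blood, liver and pancreas, 2 had no count, 8 in all stayed under 10 counts in every library, and the sum of all 12 lay between 2.35 and 4.34 CPM.

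Auxin itself acts on the aryl hydrocarbon receptor (AHR), a ligand-activated transcription factor, and the libraries of untagged cells bear on that. CYP1A1, the standard AHR target, was at 143, 149.9 and 188 CPM with auxin and 43.9, 27.4 and 7.52 CPM without, which is a log2 fold change of 2.61 ± 0.39 (SE, adjusted p = 0.000635). Its untreated libraries spread widely, and with 1 library left out the value lay at 2.17 to 3.22. Between the parental libraries CYP1A1 gave -3.84 ± 0.13, so in the libraries labelled auxin the gene was lower, opposite to the AID-NXF1, AID-TPR (1.88) and AID-GANP (2.17) cells. TIPARP, another AHR target, gave 0.75 in AID-NXF1 cells and -1.77 in the parental libraries, and CYP1B1 gave 0.23 and -1.14. The labels of the parental auxin and untreated libraries may be exchanged, which was not tested; directions are given as labelled, and every parental value below would change sign if they were. The 10 genes called between the parental libraries (0.0561% of those tested, all lower in the libraries labelled auxin) were taken out of the NXF1 calls, a step that does not depend on their direction. The number was 19 without untreated replicate 1 and 48 with the replicate number as a block, although parental replicate 2 did not pair clearly by its number. Of the 10, 7, CYP1A1 and TIPARP included, had been called higher after NXF1 loss.

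Of 17812 genes tested, 1446 were called changed after 2 h (8.12%), at an adjusted p under 0.05 in the quasi-likelihood test of edgeR (p adjusted by Benjamini-Hochberg) and a fold of at least 1.3 up or at most 0.7 down. The calls were 1057 genes lower (5.93% of those tested) and 389 higher (2.18%), so that 73.1% were falls. When libraries were scaled by their totals alone, 1307 were lower and 253 higher, and 83.8% were falls. 163 genes fell by 2-fold or more and 72 rose by 2-fold or more. The median log2 fold change was -0.72 among the called-lower genes, 0.66 among the called-higher genes and 0.01 over all tested genes. Without regard to fold, 3835 genes had an adjusted p under 0.05. In bulk libraries such as these, fewer cells of a type and less RNA per cell cannot be told apart, and each value is relative to the other RNAs of its library.

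Protein-coding genes made up 82.5% of the falls and 48.3% of the rises, against 73.8% of the genes tested. Among 13137 protein-coding genes, 872 were lower and 188 higher. Long non-coding RNAs (lncRNAs) were called in both directions about as often, with 125 lower (4.33%) and 111 higher (3.85%) of 2884. The counts of overlapping genes include each other's reads whatever the strand, and 2306 of these lncRNAs share exonic bases with another gene. In the 578 that share none, 21 were lower (3.63%) and 40 higher (6.92%), against 5.93% and 2.18% of all tested genes. Small RNAs were called mainly higher: 15 of 222 small nucleolar and Cajal body RNAs rose (6.76%, against 2.18% of all tested genes) and 0 fell. Of the 222, 155 share exonic bases with another gene.

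BTG2 and CHAC1 led the 12 largest falls of protein-coding genes whose mean count reached 50 and whose groups stood apart. The positions below are those of GENCODE 44 on GRCh38, the build of the files. BTG2 (chr1:203305491-203309602), an antiproliferative protein that recruits the CCR4-NOT deadenylase to mRNAs, was at 2.27, 2.06 and 3.09 CPM with auxin against 7.10, 8.98 and 12.7 CPM without, a log2 fold change of -1.95 ± 0.22 (SE, adjusted p = 8.07e-05). CHAC1 (chr15:40952962-40956512), an enzyme that breaks down glutathione and a target of the stress factor ATF4, was at 2.88, 3.35 and 4.83 CPM against 15.4, 9.61 and 17.9, with -1.95 ± 0.23 (SE, adjusted p = 0.000109). All 3 auxin libraries lay below all 3 untreated ones for both genes, as the rule for naming these 12 required. The groups also did not overlap for 1040 of the 1057 called-lower and 380 of the 389 called-higher genes. These genes were called by their difference between the same libraries, so this separation was largely set by that choice. The share over all tested genes is not given here. KLHL21 (chr1:6590724-6614607), a substrate adaptor of CUL3 ubiquitin ligases, was at 20.5, 17.0 and 19.1 CPM against 63.8, 64.6 and 57.7, with -1.72 ± 0.08 (SE, adjusted p = 4.65e-07). Its relative KLHL25 was at 3.95, 3.38 and 4.33 CPM against 10.7, 11.8 and 13.0, with -1.60 ± 0.12 (SE, adjusted p = 7.67e-06). Neither gene had overlapping groups, as the same rule required, and the untreated level was 3.30 and 3.04 times the auxin level.

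Of the other 8 genes, 3 were ZNF genes and 2 encode RING-domain proteins. ZNF551 was at 10.3, 8.63 and 10.1 CPM with auxin and 37.2, 33.6 and 36.0 without, with a log2 fold change of -1.88 ± 0.08 (SE, adjusted p = 4.65e-07). ZNF670 lay at 5.31, 5.90 and 5.47 CPM against 18.7, 18.3 and 20.3, with -1.78 ± 0.09 (SE, adjusted p = 7.32e-07); it shares exonic bases with the read-through gene ZNF670-ZNF695. For both, the spread within each group was small next to the gap between them. RNF19A, a RING-type ubiquitin ligase, was at 15.7, 16.5 and 19.02 CPM against 46.7, 62.4 and 72.4, with -1.82 ± 0.14 (SE, adjusted p = 7.91e-06). CLCF1, a cytokine of the interleukin-6 family, was at 1.88, 1.49 and 2.14 CPM against 4.50, 6.17 and 5.55, with -1.55 ± 0.17 (SE, adjusted p = 7.28e-05). The groups did not overlap for either, as the naming rule required. ZNF551, RNF19A, CLCF1 and NAB2 share between 61 and 205 exonic bases with a neighbour. NAB2, the corepressor that binds EGR1, was at 19.2, 20.7 and 22.4 CPM against 39.8, 65.7 and 72.9, with -1.51 ± 0.17 (SE, adjusted p = 0.000104), and its first untreated library was nearer to the auxin libraries than the other 2. The rest of the 12 largest falls were ADAMTS15 (-1.63 ± 0.19), a secreted metalloprotease, ZNF697 (-1.56 ± 0.22) and RNF227 (-1.54 ± 0.17), a RING-domain protein.

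**Figure D1:**
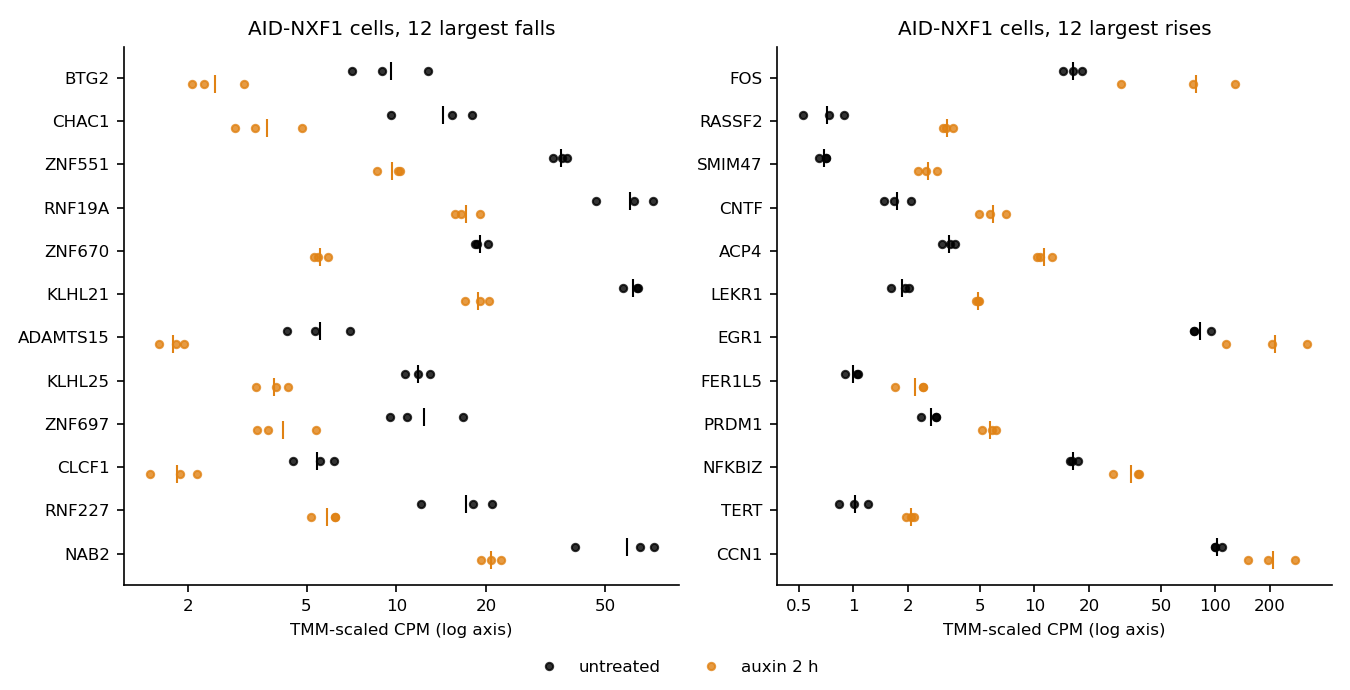
TMM-scaled CPM in each of the 3 untreated (black) and 3 auxin-treated (orange) AID-NXF1 libraries for the 12 protein-coding genes with the largest falls (left) and rises (right), on log axes; short vertical marks are group means. Groups do not overlap for any of the 24 genes, as the rule for naming them required; FOS and EGR1 spread most among the auxin libraries.

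Of the gene lists examined, the zinc finger genes held the most falls. KRAB zinc finger proteins, the main class behind the ZNF symbols, bind DNA and mostly repress retroelements and genes. Of 377 ZNF genes tested, 135 fell (35.8%, against 5.93% of all tested genes) and 2 rose (0.53%, against 2.18%). Of the 377, 327 had a value below 0, and the median log2 fold change was -0.40, against 0.01 over all tested genes. The median over the 374 with a count in both groups was -0.40. The 2 that rose were ZNF154 (0.79 ± 0.21, adjusted p = 0.0221) and ZNF432 (0.54 ± 0.16, adjusted p = 0.0313). ZNF154 missed a threshold without auxin replicate 1 or 3 or any 1 untreated library (0.66 to 0.91), and ZNF432 without auxin replicate 1 or 3 or untreated replicate 1 or 2 (0.39 to 0.67). On chromosome 19, where ZNF genes lie in clusters, 64 of 165 fell, and elsewhere 71 of 212. Together the ZNF genes took 0.598%, 0.589% and 0.643% of the counts in the auxin libraries and 0.803%, 0.809% and 0.841% in the untreated ones, a ratio of means of 0.746. The groups do not overlap, and the exact two-sided permutation test gave p = 0.1, the smallest that 3 against 3 allows. The related ZBTB, ZSCAN and ZKSCAN genes had 22 of 59 lower (37.3%) and none higher. Paralogous ZNF genes share sequence, and how their reads were divided was set by the authors' counting.

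Other families of transcription factors fell in part. Of 19 KLF and SP factors, which bind GC-rich promoter boxes, 7 fell (36.8%, against 5.93% of all tested genes) and none rose. KLF9, a glucocorticoid-responsive member, was at 24.1, 25.3 and 19.3 CPM against 48.9, 68.8 and 57.5 (-1.35 ± 0.12, adjusted p = 2.2e-05), and KLF5, a proliferation factor of intestinal crypts, at 93.3, 101 and 101 CPM against 152, 177 and 159 (-0.72 ± 0.06, adjusted p = 1.64e-05). Of 25 forkhead genes 8 fell (32%) and none rose. FOXQ1 was at 19.7, 24.2 and 23.9 CPM against 37.6, 46.9 and 48.1, and FOXA1, a pioneer factor of endodermal epithelia, at 64.7, 77.1 and 72.5 against 113, 132 and 113. The groups were apart for all 4 of these genes. Of 26 HOX genes, 3 fell (11.5%, against 5.93% of all tested genes), HOXA11 (-1.14 ± 0.08) and HOXA13 (-0.74 ± 0.06) among them, and 1, HOXA6, rose (0.40 ± 0.11; 3.85% of the list against 2.18%); these named genes share exonic bases with a neighbouring gene. HOXA6 missed a threshold without replicate 1 or 3 of either group (0.28 to 0.50 over the libraries left out). CEBPA and CEBPD, single-exon genes of the C/EBP family, fell by 0.71 and 0.83 on the log2 scale, and the other 4 of 6 C/EBP genes were not called.

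The 8 ZFP36, BTG and TOB genes gave the lowest median of the lists examined. The ZFP36 proteins bind AU-rich elements in short-lived mRNAs, and BTG and TOB proteins bind the deadenylase. 6 of 8 fell (75%, against 5.93% of all tested genes), and the median was -0.78. TOB2 was at 22.6, 26.1 and 26.7 CPM with auxin and 58.4, 64.6 and 66.1 without (-1.32 ± 0.07, adjusted p = 1.74e-06). ZFP36L1 was at 44.2, 59.5 and 65.5 CPM against 95.5, 109.8 and 94.1 (-0.82 ± 0.11, adjusted p = 0.000416). In both the groups stood apart; BTG1, TOB1 and ZFP36L2 also fell, by 0.69, 0.76 and 0.80 on the log2 scale, and ZFP36 and BTG3 were not called. Among 15 factors of nonsense-mediated decay, the pathway that destroys mRNAs with early stop codons, 4 fell (26.7%) and none rose. SMG9 was at 14.8, 12.1 and 16.7 CPM against 28.9, 27.7 and 29.7, SMG5 at 102, 92.1 and 106 against 147, 155 and 163 and UPF2 at 41.3, 36.7 and 39.7 against 56.9, 59.6 and 60.5, and the fourth was UPF3B (-0.69 ± 0.11). Of 20 genes of the nuclear exosome and its adaptors 2 fell (10.0%, against 5.93% of all tested genes) and the median was 0.01: TENT4A, a poly(A) polymerase of the nuclear surveillance machinery, at 18.5, 24.8 and 25.6 CPM against 43.9, 44.5 and 46.7, and RBM7, a subunit of the NEXT complex, which shares exonic bases with a neighbour (-0.66 ± 0.09).

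Some members of the BCL2 family, p53 target and EGF receptor lists fell. Of 15 BCL2 family genes, 6 fell (40%, against 5.93% of all tested genes) and none rose. They include MCL1, which protects cells from apoptosis, at 124, 154 and 207 CPM against 252, 284 and 336 (-0.84 ± 0.15, adjusted p = 0.00220), and PMAIP1, which antagonises MCL1, at 10.3, 14.6 and 17.6 CPM against 25.9, 26.9 and 34.5 (-1.03 ± 0.16, adjusted p = 0.000866). Auxin replicate 3 was the highest of its group for both, and the groups did not overlap. The other 4 were the death-promoting BBC3, BMF, BAK1 and BCL2L11, between -0.78 and -0.58 on the log2 scale. Of 18 known targets of p53, 5 fell (27.8%): BTG2, CDKN1A (-1.10 ± 0.25), PMAIP1, BBC3 and SESN1 (-0.57 ± 0.09). Among ligands of the EGF receptor and its feedback inhibitors, 5 of 13 fell (38.5%) and 1 rose (7.69%, against 2.18% of all tested genes). EREG, a ligand of the receptor, was at 469.7, 639 and 519 CPM against 782, 1124 and 896 (-0.78 ± 0.13, adjusted p = 0.00116). The ligand AREG (-0.67 ± 0.16) and the inhibitors ERRFI1 (-0.75 ± 0.12), SPRY2 (-0.96 ± 0.16) and SPRY4 (-0.79 ± 0.22) fell too, while SPRED3 rose (0.83 ± 0.22). When 1 library was left out, a threshold was missed by BMF (replicate 1 or 2 of either group; -0.92 to -0.57), BCL2L11 (untreated replicate 2; -0.71 to -0.50), AREG (auxin 1 or untreated 2; -0.83 to -0.50), SPRY4 (auxin 1 or 2, untreated 2 or 3; -1.09 to -0.54) and SPRED3 (auxin 3, untreated 1 or 2; 0.60 to 1.00).

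Signalling receptors, stress genes and ubiquitin adaptors added smaller groups. Of 8 Frizzled genes, the receptors of Wnt ligands, 4 fell (50%, against 5.93% of all tested genes). FZD7, with a single exon, was at 16.6, 19.2 and 17.5 CPM against 32.7, 36.0 and 29.9 (-0.89 ± 0.08, adjusted p = 2.54e-05). RNF43, the ligase that removes Frizzled receptors from the surface, was at 51.0, 51.8 and 55.3 CPM against 91.9, 106 and 99.5 (-0.91 ± 0.06, adjusted p = 5.08e-06), and is 1 of 3 Wnt targets called lower among 16 (18.75%). In the Notch pathway 3 of 16 genes fell (18.75%). HES1, the main effector, was the 1 that rose (6.25%, against 2.18% of all tested genes), at 38.4, 52.6 and 61.5 CPM against 25.2, 33.8 and 27.8 (0.82 ± 0.15, adjusted p = 0.00228). Of 55 F-box only and KLHL adaptors 9 fell (16.4%) and 1 rose (1.82%). ATF4, the factor of the integrated stress response, was at 243, 232 and 255 CPM against 359, 338 and 364 (-0.54 ± 0.05, adjusted p = 3.93e-05), and beside it and CHAC1 the other 12 of 14 genes of that response were not called. Without auxin replicate 2 ATF4 missed the fold threshold (-0.58 to -0.51 over the libraries left out). DNAJB9, a chaperone of the endoplasmic reticulum, was the 1 called of 12 genes of the unfolded protein response (-1.19 ± 0.12). That is 8.33% lower, against 5.93% of all tested genes. All 16 heat shock genes tested were left uncalled, with a median of 0.11.

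**Figure D2:**
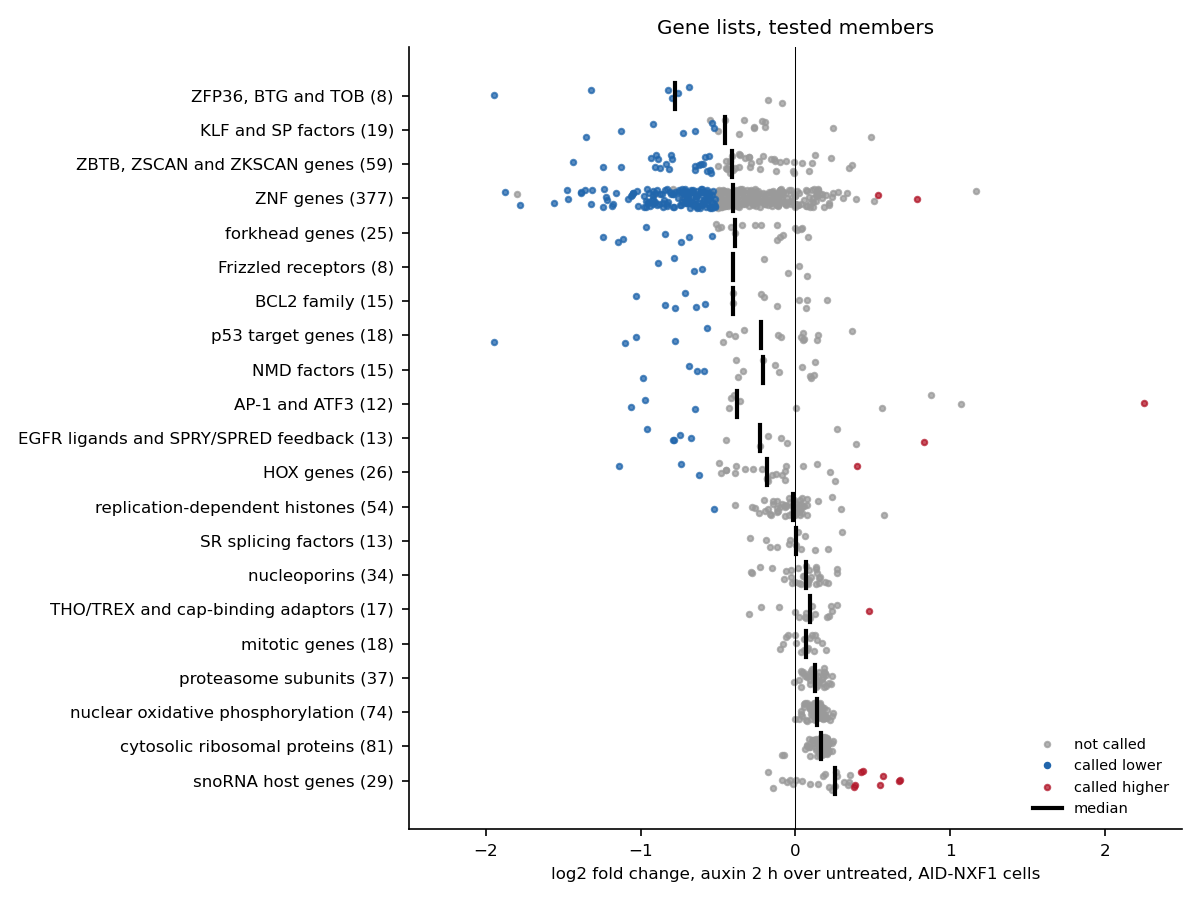
Log2 fold changes of auxin over untreated AID-NXF1 cells for the tested members of 21 gene lists, with the number of members in brackets; each point is a gene (blue, called lower; red, called higher; grey, not called) and black bars are list medians. Medians run from -0.78 for ZFP36, BTG and TOB to 0.26 for snoRNA host genes, and the ribosomal protein, respiratory chain and proteasome genes form narrow clusters a little above 0.

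Of 5 lists of housekeeping genes, 4 held no called gene. None of 81 ribosomal protein genes was called, with a median of 0.17, nor any of 74 nuclear genes of the respiratory chain (0.14), 37 proteasome subunits (0.13) or 14 glycolytic genes (0.15). These medians stayed above 0 under each scaling tried. Of 35 translation initiation factors, EIF1B fell (-0.64 ± 0.10) and EIF4A2 rose (0.39 ± 0.06), with a median of 0.10. Each is 2.86% of the list, against 5.93% lower and 2.18% higher over all tested genes. EIF4A2 missed the fold threshold without auxin replicate 3 or untreated replicate 1 or 2 (0.36 to 0.44). Ribosomal protein mRNAs took 6.86%, 6.83% and 6.33% of the counts with auxin and 6.40%, 6.25% and 5.98% without, with overlapping groups (exact permutation p = 0.2). Their share was higher with auxin in each same-numbered pair, and the permutation test does not use the pairs. Nuclear mRNAs of the respiratory chain took 0.912%, 0.907% and 0.873% of the counts with auxin and 0.856%, 0.840% and 0.843% without. Their groups did not overlap (exact permutation p = 0.1, the smallest that 3 against 3 allows). Genes of S phase (13) and of mitosis (18) were not called either. The replication-dependent histones, whose mRNAs have no introns and no poly(A) tail, had 1 of 54 called, H4C9 (-0.52 ± 0.06, adjusted p = 0.000106), and a median of -0.01. H4C9 missed the fold threshold without auxin replicate 3 or untreated replicate 1 or 3 (-0.57 to -0.50).

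The export machinery itself changed at few places. NXT1, the partner of NXF1, was at 19.8, 20.3 and 18.3 CPM with auxin and 27.7, 27.4 and 28.8 without, and fell with a log2 fold change of -0.52 ± 0.07 (SE, adjusted p = 0.000202). It missed the fold threshold without replicate 3 of either group (-0.56 to -0.48 over the libraries left out). Its paralog NXT2 was not called (0.02 ± 0.08). Of 17 THO/TREX and cap-binding adaptors, 1 rose (5.88%, against 2.18% of all tested genes). This was DDX39A, an RNA helicase close to the TREX helicase DDX39B, at 162, 163 and 167 CPM against 121, 117 and 115 (0.48 ± 0.05, adjusted p = 3.04e-05). DDX39B itself was not called (0.23 ± 0.05). None of the 6 TREX-2 subunits, 34 nucleoporins or 29 genes of the Ran cycle, importins and exportins was called, with medians of 0.12, 0.07 and 0.05, the last turning to -0.01 when libraries were scaled by totals alone. Of the splicing lists, no SR protein (13) and no hnRNP (20) was called. CLK2, a kinase that phosphorylates SR proteins, rose, at 33.6, 31.5 and 42.9 CPM against 21.9, 26.1 and 24.5 (0.58 ± 0.11, adjusted p = 0.00278).

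The rises included immediate early genes, which respond to stimuli within minutes and without new protein. FOS (chr14:75278826-75282230), a subunit of the transcription factor AP-1, was at 30.1, 128 and 74.9 CPM with auxin and 16.4, 18.2 and 14.4 without, and its log2 fold change was 2.26 ± 0.38 (SE, adjusted p = 0.00146). EGR1 (chr5:138465479-138469303), a zinc finger factor of the same early wave, was at 114, 205 and 319.7 CPM against 76.4, 76.2 and 94.9 (1.37 ± 0.27, adjusted p = 0.00359). In both genes the auxin libraries spread several times as widely as the untreated ones. Their groups did not overlap, as was required of the 12 largest rises. DUSP1, a phosphatase that ends MAP kinase signals, was at 12.3, 28.1 and 16.3 CPM against 9.61, 9.58 and 10.3 (0.95 ± 0.23, adjusted p = 0.0132), and CCN1, a matricellular protein, at 152, 195 and 276 CPM against 99.4, 99.2 and 109 (1.02 ± 0.16, adjusted p = 0.000811). Other genes of these lists went the other way: MAFK, MAFF and MAFG, small partners of AP-1 type factors, fell (-1.06 ± 0.12, -0.97 ± 0.20 and -0.65 ± 0.12), as did DUSP2 (-0.63 ± 0.12) and DUSP7 (-0.52 ± 0.06). The single-exon gene IER5 was at 12.3, 10.7 and 11.9 CPM against 28.1, 30.2 and 36.7 (-1.45 ± 0.10, adjusted p = 5.85e-06). JUN, with a single exon, was at 55.2, 109.7 and 121 CPM against 46.4, 71.2 and 76.7 and was not called (0.56 ± 0.24, adjusted p = 0.120), and its groups overlapped. It was higher with auxin in each same-numbered pair, and with the replicate number as a block it was called higher (0.52, adjusted p = 1.36e-07). Over the lists, 1 of 12 AP-1 genes rose (8.33%) and 3 fell (25%), and 1 of 6 EGR and NAB genes rose and 1 fell (16.7% each). Of 9 DUSP genes 1 rose (11.1%) and 2 fell (22.2%), and 2 of 4 IER genes fell (50%). Over all tested genes 2.18% rose and 5.93% fell, and in lists this short 1 gene makes a large share. Without untreated replicate 2 DUSP1 missed a threshold (0.54 to 1.17 over the libraries left out), as did DUSP7 without that library or auxin replicate 1 (-0.54 to -0.49).

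The promoters of 4 of these genes are shown because FOS and EGR1 rose while BTG2 and KLHL21 fell. Each is the RefSeq window (GRCh38.p14) from 250 bases before to 50 after the start of the RefSeq gene, 5′ to 3′ on the gene's strand. Capitals mark the TATA box TATAAA, the CArG box (the core of the serum response element) and the GC box GGGCGG, on either strand; a CArG box can hold TATAAA within it. The KLHL21 window lies inside the GENCODE interval given above, which reaches further upstream.
FOS, chr14:75278578-75278877, plus strand: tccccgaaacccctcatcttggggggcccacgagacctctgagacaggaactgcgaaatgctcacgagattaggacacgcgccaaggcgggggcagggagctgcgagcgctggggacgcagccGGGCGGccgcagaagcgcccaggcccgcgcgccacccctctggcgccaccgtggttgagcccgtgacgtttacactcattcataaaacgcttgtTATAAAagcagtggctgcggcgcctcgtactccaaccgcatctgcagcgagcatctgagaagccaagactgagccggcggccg
EGR1, chr5:138465229-138465528, plus strand: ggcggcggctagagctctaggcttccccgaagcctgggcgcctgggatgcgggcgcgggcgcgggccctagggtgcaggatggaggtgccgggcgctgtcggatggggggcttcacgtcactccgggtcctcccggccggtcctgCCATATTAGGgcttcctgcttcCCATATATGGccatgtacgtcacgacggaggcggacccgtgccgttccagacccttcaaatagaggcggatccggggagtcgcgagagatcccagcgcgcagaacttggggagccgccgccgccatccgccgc
BTG2, chr1:203305269-203305568, plus strand: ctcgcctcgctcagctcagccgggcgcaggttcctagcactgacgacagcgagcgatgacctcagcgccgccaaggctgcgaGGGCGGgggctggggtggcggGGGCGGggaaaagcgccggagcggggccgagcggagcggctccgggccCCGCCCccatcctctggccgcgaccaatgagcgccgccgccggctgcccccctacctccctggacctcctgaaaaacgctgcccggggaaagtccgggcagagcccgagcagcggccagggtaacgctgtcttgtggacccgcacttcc
KLHL21, chr1:6602820-6603119, minus strand: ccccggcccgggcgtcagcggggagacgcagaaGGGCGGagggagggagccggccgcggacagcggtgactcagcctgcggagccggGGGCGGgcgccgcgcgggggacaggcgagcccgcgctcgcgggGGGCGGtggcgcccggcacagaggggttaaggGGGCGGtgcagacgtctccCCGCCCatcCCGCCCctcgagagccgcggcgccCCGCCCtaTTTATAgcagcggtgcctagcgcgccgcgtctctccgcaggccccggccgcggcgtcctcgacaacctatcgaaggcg
The FOS window holds 1 TATAAA and 1 GC box, and the EGR1 window 2 CArG boxes. Sites more than 250 bases upstream were not searched, so a box missing from a window may still lie further upstream of the gene. BTG2 has 3 GC boxes, and KLHL21 has 7 beside 1 TATAAA on the other strand.

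The same letters were counted in the windows of 10475 of the 13137 protein-coding genes tested, those with a RefSeq promoter of the same symbol. TATAAA was present in 25 of 150 called-higher genes (16.7%), 42 of 691 called-lower genes (6.08%) and 5.99% of all those windows. The GC box was in 53.3% of the called-higher, 75.4% of the called-lower and 70.0% of all windows. A CArG box was in 3 of the 150 called-higher genes (2.00%), 9 of the 691 called-lower genes (1.302%) and 1.07% of all. The CCAAT box stood in 31.3%, 40.8% and 36.8%, the cAMP response element TGACGTCA in 2.67%, 3.91% and 3.25%, and the AP-1 site TGANTCA in 4%, 6.51% and 4.53%. In the same order, the E-box CACGTG was in 14%, 9.696% and 9.995%, and the AHR core GCGTG in 54%, 52.24% and 50.55%. The median GC content of the windows was 60.3% for called-higher, 66.3% for called-lower and 65.3% for all genes. These shares are descriptions and were not tested.

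Several of the other large rises were in genes with few counts in untreated cells. RASSF2, a Ras-association protein, was at 3.53, 3.24 and 3.14 CPM against 0.735, 0.887 and 0.524 (2.21 ± 0.19, adjusted p = 1.67e-05). ACP4, an acid phosphatase, was at 10.3, 10.8 and 12.6 CPM against 3.09, 3.41 and 3.64 (1.73 ± 0.12, adjusted p = 5.04e-06), and SMIM47, a small membrane protein, at 2.53, 2.26 and 2.91 against 0.643, 0.710 and 0.709 (1.90 ± 0.19, adjusted p = 3.93e-05). The untreated levels of these genes were under 4 CPM, and the auxin libraries lay close together. SMIM47 and ACP4 lie on opposite strands of chromosome 19 and overlap each other without sharing annotated exonic bases. CNTF, a neurotrophic cytokine, rose by 1.75 ± 0.17 on the log2 scale, but it shares exonic bases with the read-through gene ZFP91-CNTF, and reads in them cannot be told apart. NFKBIZ, a nuclear regulator of NF-kappaB, was at 27.2, 37.8 and 37.5 CPM against 15.8, 16.1 and 17.4 (1.06 ± 0.11, adjusted p = 6.21e-05). It was the 1 gene called among 14 NF-kappaB targets (7.14% higher, against 2.18% of all tested genes). The remaining genes of the 12 largest rises were LEKR1 (1.4002 ± 0.13), the ferlin FER1L5 (1.13 ± 0.20), the repressor PRDM1 (1.08 ± 0.13) and TERT, the catalytic subunit of telomerase (1.03 ± 0.18).

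Some of the genes that rose had values of the opposite sign between the parental libraries as labelled, like CYP1A1. Between those libraries PRDM1 gave -1.25 ± 0.31, TERT -0.997 ± 0.17 and LEKR1 -0.39 ± 0.17, none of them called there. Over the 389 called-higher genes, 35 had a parental value of -0.38 or below and 11 one of 0.38 or above, where 0.38 is the log2 of 1.3. Over the 1057 called-lower genes the numbers were 15 and 6. The part of auxin itself in the rises was not tested beyond this. Against the parental libraries as labelled, 1729 genes differed (9.71%) by the test of the interaction in edgeR. Among them were 793 of the 1057 called-lower genes and 152 of the 389 called-higher genes. Both sets were picked by their value in AID-NXF1 cells, so the direction of their differences was largely set by that choice. With the replicate number as a block within each line 4136 genes differed, although parental replicate 2 did not pair clearly by its number. With the labels of the parental groups exchanged, an alternative added after the data were seen, 2251 genes differed. These held 860 of the called-lower and 170 of the called-higher genes.

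Among lncRNAs, some hosts of snoRNAs rose. These genes release small nucleolar RNAs from their introns. Of 29, 8 were higher (27.6%, against 2.18% of all tested genes) and none lower, with a median of 0.26. With libraries scaled by their totals alone, 4 were higher. GAS5 was at 329.8, 326 and 327 CPM with auxin and 237, 246 and 241 without (0.44 ± 0.05, adjusted p = 4.85e-05), SNHG3 at 499, 476 and 518 against 383, 389 and 342 (0.42 ± 0.06, adjusted p = 0.000467) and SNHG5 at 88.3, 82.0 and 72.8 against 58.6, 56.1 and 51.4 (0.55 ± 0.07, adjusted p = 0.000312). The groups did not overlap for these 3, SNHG3, which overlaps RCC1, the gene that carries TIR1, missed the fold threshold without untreated replicate 3 (0.37 to 0.46), and all 8 that rose share exonic bases with another gene. Of 11 well-studied lncRNAs, most are known for nuclear retention, but the mainly cytoplasmic NORAD and OIP5-AS1 are among them. PVT1 was the 1 of these that rose (0.65 ± 0.08), which is 9.09% against 2.18% of all tested genes. MALAT1 (0.20 ± 0.13) and NEAT1 (0.45 ± 0.19) were not called. With the replicate number as a block NEAT1 was called higher (0.45, adjusted p = 7.72e-06). Among lncRNAs with a mean of at least 50 counts, the largest rise with a symbol was LINC02029, at 5.99, 6.22 and 4.09 CPM against 1.65, 1.84 and 0.678 (1.97 ± 0.27, adjusted p = 0.000374), which overlaps other transcripts and gave -0.97 ± 0.20 between the parental libraries. HDAC2-AS2 rose by 1.21 ± 0.14 and also overlaps other genes. Above the same minimum, the 4 with the largest falls all overlap exons of a coding gene. The 1 with a symbol was HILPDA-AS1 (-1.16 ± 0.18), whose reads cannot be told apart from those of HILPDA, a hypoxia-induced lipid droplet protein (-1.43 ± 0.10).

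Of 3 classes of small RNA, snRNAs and miscellaneous RNAs held a larger share of the counts in each auxin library than in any untreated one, and the groups overlapped for snoRNAs and scaRNAs (0.446%, 0.440% and 0.426% against 0.394%, 0.430% and 0.389%, exact permutation p = 0.2). The small nuclear RNA class held 1.10%, 1.16% and 1.13% of the counts with auxin and 0.898%, 0.967% and 0.900% without, a ratio of means of 1.22. Most of these counts fell on RN7SK, the RNA of the complex that holds back the elongation factor P-TEFb, at 10429, 11220 and 10690 CPM against 8205, 8774 and 8165. Its log2 fold change was 0.36 ± 0.06 (SE, adjusted p = 0.00141), short of the fold threshold. The class of miscellaneous RNAs, which includes a second identifier for 7SK with the same counts and the 7SL RNAs of the signal recognition particle, held 2.61%, 2.59% and 2.78% against 2.23%, 2.20% and 2.33%. RN7SL1 was at 8905, 8353 and 8984 CPM against 7539.7, 6717 and 7535 (0.27 ± 0.07, adjusted p = 0.0135), also short of the fold threshold. Protein-coding genes held 87.3%, 87.4% and 87.2% against 88.3%, 88.4% and 88.3%. For snRNAs, miscellaneous RNAs and protein-coding genes the groups did not overlap, with the smallest possible exact permutation p of 0.1, while the share of lncRNAs did overlap (4.42%, 4.37% and 4.45% against 4.32%, 4.34% and 4.41%, exact p = 0.2). The shares of lncRNAs and of snoRNAs and scaRNAs were nonetheless higher with auxin in each same-numbered pair, and the permutation test does not use the pairs. A larger share of one class lowers the share of the others, so these shares do not say which RNAs changed in amount. Among small RNAs that share no exonic bases with another gene, the U3 gene SNORD3B-1 (0.44 ± 0.05), whose reads may be split with near-identical copies, and the Y RNA RNY1 (0.69 ± 0.12) rose. The RNAs named in these sentences were chosen after their values were seen.

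**Figure D3:**
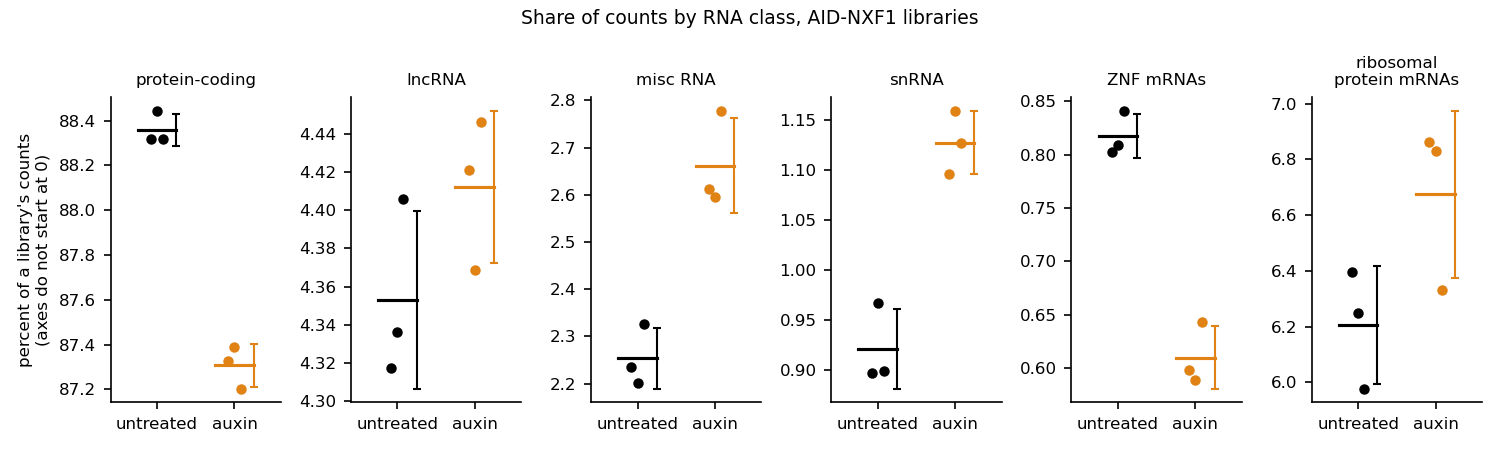
Percent of each library's counts on 4 RNA classes and on 2 groups of mRNAs, in 3 untreated (black) and 3 auxin-treated (orange) AID-NXF1 libraries; horizontal lines are means, error bars 1 SD, and the axes do not start at 0. The groups are apart for protein-coding RNA, miscellaneous RNA, snRNA and ZNF mRNAs and overlap for lncRNA and ribosomal protein mRNAs.

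The falls were most frequent in genes with few exons, counted in the canonical transcript of each protein-coding gene. With 1 exon 53 of 288 genes fell (18.4%), with 2 exons 140 of 587 (23.9%) and with 3 or 4 exons 272 of 1798 (15.1%). With 10 to 19 exons it was 108 of 4252 (2.54%), and with 20 or more 21 of 2014 (1.04%), against 6.64% over all protein-coding genes. The share of rises lay between 1.04% and 2.23% in all 6 groups and was highest at 20 or more exons. The median log2 fold change was -0.17 with 1 exon, -0.26 with 2 and 0.06 with 20 or more. Scaling by library totals alone lowered the median of all genes to -0.05 and took the last value below 0, and the order of the groups stayed. Over the 13137 genes, exon number and log2 fold change had a Spearman rho of 0.27, a description across genes of the same libraries. Leaving out genes that share exonic bases with another gave 17.0%, 26.9% and 16.5% lower at 1, 2 and 3 or 4 exons, and leaving out ZNF, ZBTB, ZSCAN, ZKSCAN and KLF genes 18.5%, 22.2% and 11.9%.

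Genes without any intron split into 2 kinds. Of 40 intronless replication-dependent histone genes 1 fell, with a median of 0.01. Of the 181 other intronless genes 46 fell (25.4%, against 5.93% of all tested genes) and 3 rose (1.66%, against 2.18%), with a median of -0.25. They include, chosen after their values were seen, ZCCHC3, a nucleic acid-binding protein, at 10.5, 11.2 and 12.5 CPM against 27.5, 29.7 and 30.0 (-1.35 ± 0.08, adjusted p = 2.48e-06), and RHOB, a small GTPase of endosomes with a short-lived mRNA, at 116, 132 and 149.9 CPM against 259, 277 and 328 (-1.12 ± 0.10, adjusted p = 1.85e-05). In both the groups were far apart. Transcript length ordered the genes less: 2.71% of those of up to 1000 nt fell, 8.28% of those over 2000 and up to 4000 nt, and 3.69% of those over 8000 nt. By GC content of the transcript, the share of falls went from 5.40% in the lowest to 8.14% in the highest of 5 equal groups. Level moved with the exon count and is given beside it: with the genes in 3 equal groups by mean count, in the lowest group 20.1% with 1 to 4 exons and 3.35% with 10 or more fell, in the middle group 20.6% and 2.89%, and in the highest 6.19% and 0.482%.

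The falls were also more frequent among mRNAs that fell most when transcription was stopped. Those values were taken from other libraries of the series, AID-TPR cells given actinomycin D (ActD), an inhibitor of transcription, for 2 h, against the 3 untreated ones labelled old. The ActD and old untreated libraries each hold 36312 to 100616 counts on mitochondrially encoded genes, where the AID-NXF1 libraries hold none. They are thus not like for like with the AID-NXF1 libraries, though alike in this among themselves. The protein-coding genes with a mean count of at least 10 in those untreated libraries (12398) were split into 5 equal groups by their log2 fold change there. In the group that fell most under ActD (at or below -0.41), 448 of 2480 genes fell after NXF1 loss (18.1%), in the next 213 (8.59%), then 97 (3.91%), 46 (1.86%) and 22 in the last (0.887%). Both log2 fold changes together had a Spearman rho of 0.34 across genes. Exon number still ordered the genes within the group that fell most under ActD: 276 of 792 with 1 to 4 exons fell (34.8%), 124 of 670 with 5 to 9 (18.5%) and 48 of 1018 with 10 or more (4.72%). Among genes named above, ActD values were -0.99 for BTG2, -1.26 for CHAC1 and -1.34 for RNF19A, whose RNA falls were large, and -1.24 for NFKBIZ and -1.34 for PRDM1, which rose. FOS was at 0.67 in that comparison and EGR1 at -0.02. The called-higher genes had a median ActD value of -0.19, and the called-lower genes one of -0.41.

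**Figure D4:**
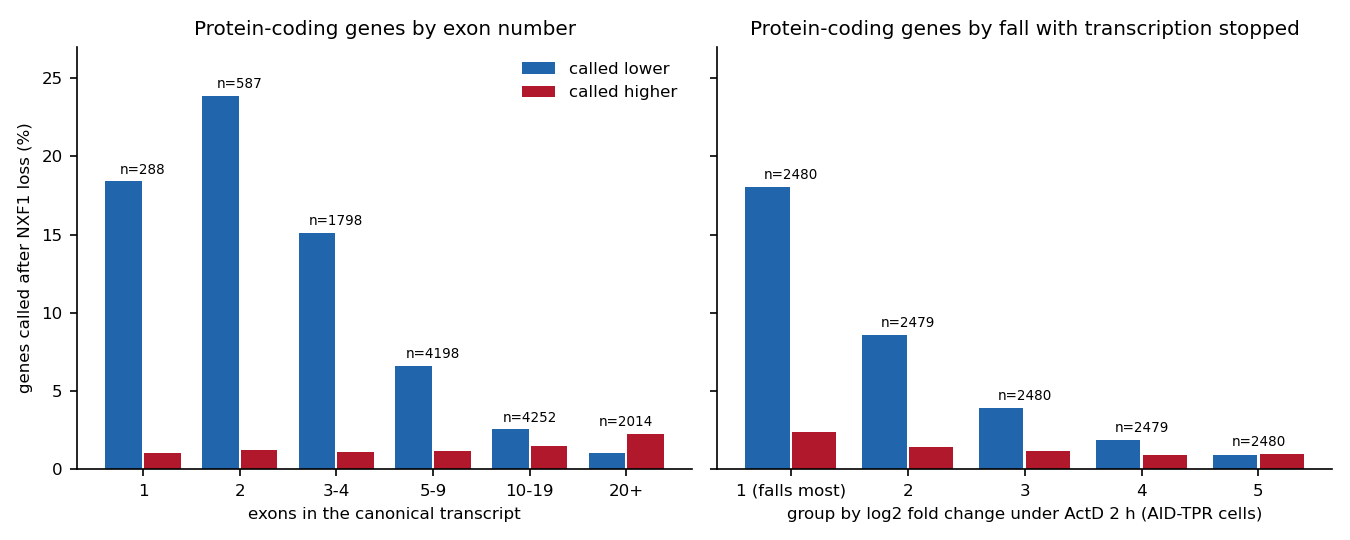
Percent of protein-coding genes called lower (blue) and higher (red) after NXF1 loss, by exon number of the canonical transcript (left) and by 5 equal groups of the log2 fold change under actinomycin D in separate AID-TPR libraries (right); n is the number of genes. The share called lower runs from 23.9% at 2 exons to 1.04% at 20 or more, and from 18.1% in the first to 0.887% in the last ActD group.

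Loss of TPR for the same 2 h, with libraries of its own, gave 91 calls at the same thresholds (0.511% of the genes tested). Genes called between the parental libraries were not taken out of these 91. Same-numbered AID-TPR libraries also deviated together (residual correlations of 0.62, 0.68 and 0.41, against 0.44, 0.24 and 0.51 in AID-NXF1 cells). The calls used no replicate block, and TPR calls with a block were not counted. The numbers called in the lines thus do not compare sizes of effect alone. Of the 1057 genes lower after NXF1 loss, 925 also had a value below 0 after TPR loss, with a median of -0.26 against -0.72. 64 genes were called lower in both, which is 6.05% of the NXF1 falls and 88.9% of the 72 TPR falls. The interaction test found 407 genes that differed between the lines (2.28%), 373 with the lower value after NXF1 loss. With 1 library left out the count lay between 223 and 453, and it was under 407 by over 1.5 times without NXF1 auxin replicate 1 (253) or 2 (227), NXF1 untreated replicate 1 (268) or 2 (225) or TPR untreated replicate 3 (223). The 407 held 267 of the called-lower and 22 of the called-higher genes. These genes were picked by their value after NXF1 loss, so the direction of their difference was largely set by that choice. With the replicate number as a block within each line, 2370 genes differed, 1748 of them lower after NXF1 loss. No more than a difference of size or direction is shown by this test, and the depletion of either protein was not measured here.

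The gene that differed most was ZNF670, whose values were -1.78 ± 0.09 after NXF1 loss and -0.03 ± 0.08 after TPR loss (difference -1.76 ± 0.12, adjusted p = 2.63e-06). ZNF697, CLCF1 and ZNF551 were also among the 5 largest differences on that side, and ZNF697 missed the threshold without NXF1 auxin replicate 2 (adjusted p = 0.0506). On the other side ACP4 gave 1.73 ± 0.12 against 0.31 ± 0.27 (adjusted p = 0.0242), and RASSF2 2.21 ± 0.19 against 0.91 ± 0.23 (adjusted p = 0.0341). The differences of ACP4 and RASSF2 kept their direction but missed the threshold in 7 and 10 of 15 alternatives, with a highest adjusted p of 0.0682 and 0.102 and values of 1.18 to 1.73 and 1.10 to 1.46. CNTF and C15orf62 also differed, CNTF with an adjusted p of 0.0522 without TPR untreated replicate 3; C15orf62, which overlaps DNAJC17, was among the genes called between the parental libraries. By list, 65 of the 377 ZNF genes differed between the lines, where 2.28% of all tested genes did, with medians of -0.40 after NXF1 loss and -0.08 after TPR loss. 4 of the 15 NMD factors differed (SMG9, SMG5, UPF2 and UPF3B) and 4 of the 13 EGF receptor genes (EREG, ERRFI1, TGFA and SPRY1), where EREG gave -0.78 ± 0.13 after NXF1 loss and 0.45 ± 0.19 after TPR loss. 4 of the 288 genes with 1 exon differed, which is near the share over all tested genes, with medians of -0.17 and -0.25. For FOS, EGR1 and CCN1 the interaction did not pass the threshold (adjusted p = 0.483, 0.652 and 0.946), which does not show that they responded alike.

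**Figure D5:**
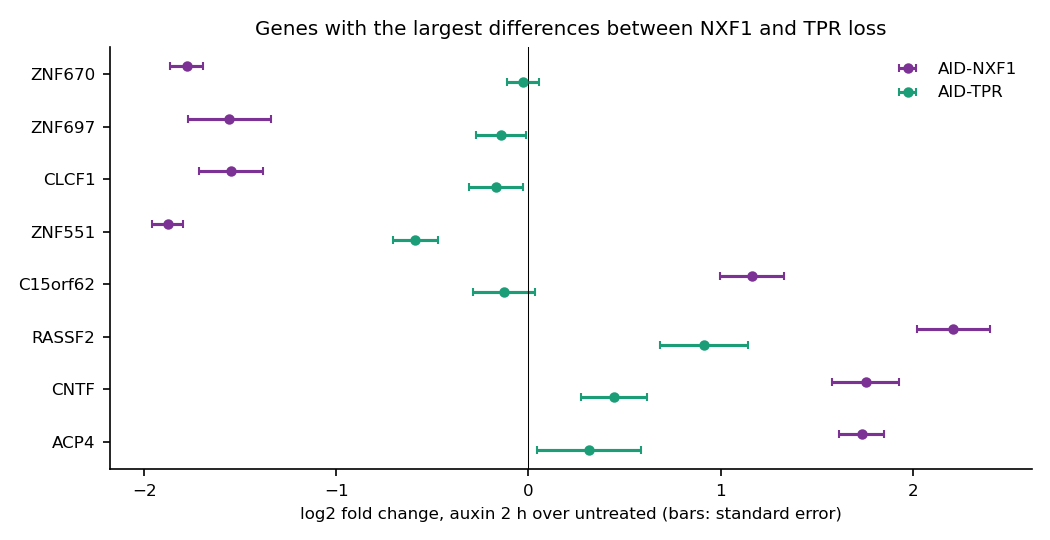
Log2 fold changes of auxin over untreated in AID-NXF1 (purple) and AID-TPR (green) cells for 8 of the 10 genes with the largest differences between the lines; bars are standard errors of the separate fits, 3 libraries a group. 4 genes lay lower and 4 higher after NXF1 loss, and ZNF670 (-1.78 against -0.03) differed most.

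After 3 h of GANP loss the same 1057 genes had a median of -0.86 and the 389 called-higher genes one of 0.49. The interaction with NXF1 loss, which also spans the difference of 1 h, passed the threshold for 466 genes (2.62%), or 2685 with the replicate number as a block, and for 257 to 461 with 1 library left out, falling by over 1.5 times without NXF1 auxin replicate 2 (306) or NXF1 untreated replicate 1 (257) or 2 (273).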

How the data were processed

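The 6 libraries were ribosomal RNA-depleted total RNA of AID-NXF1 DLD-1 cells, which the study describes as independent biological replicates; p-values measure the spread between them. The deposited values are raw counts of reads per gene, which the authors made with CASAVA 1.8.2, STAR 2.6.1c and featureCounts 1.5.2 on GRCh38 according to the submitters' processing notes. Reads in overlapping exons were counted for each gene. Of 58051 gene identifiers, 56948 matched GENCODE 44, which gave symbols, biotypes, exons and coordinates. Libraries of ActD with auxin were not used.

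Genes with CPM above 1 in over 5% of 60 libraries were tested (17812) with edgeR 4.0.16 (TMM scaling, quasi-likelihood F test, Benjamini-Hochberg adjustment) in R 4.3.3, on the 6 libraries of the comparison, or the 12 of 2 lines for an interaction. Calls needed an adjusted p under 0.05, a fold of 1.3 up or 0.7 down or beyond, and no call between the parental libraries. Shares of counts were compared by exact two-sided permutation tests. The test was tried on simulated counts with known changes. Named genes were the tagged gene, the 12 protein-coding and 4 lncRNA genes with the largest changes each way (mean count of at least 50, groups apart), the 5 largest differences from TPR loss each way, auxin markers and members of the lists. The lists and members were chosen with earlier results of these data known.

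Replicates of 1 group differed by 4.07 to 10.2 times the chi-square per degree of freedom that counting allows, so none was a repeated library. Same-numbered auxin and untreated AID-NXF1 libraries deviated together (residual correlations of 0.44, 0.24 and 0.51 over 14946 genes, against at most 0.08 between other numbers). In the parental libraries the correlations were 0.66, 0.06 and 0.54, the second below the bound of 0.1 set for pairing. The numbers were taken to pair the libraries in each line, less surely in the parental one, and a fit with the number as a block was an alternative. Others were RLE scaling, library totals alone, DESeq2 1.42.0, other filters, 1 fit over 60 libraries, other fold limits, no removal of parental calls, and leaving out each library. Some genes that these rules name are not reported here.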

Additional observations from a re-analysis of the deposited data

Results flagged for a closer look

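For 8 genes the response to NXF1 loss differed from that to TPR loss by the interaction test in edgeR, which is why they are listed; they are among the 5 largest differences each way. On the log2 scale (AID-NXF1 minus AID-TPR) the value was -1.76 for ZNF670, -1.42 for ZNF697, -1.39 for CLCF1 and -1.296 for ZNF551, with the lower value after NXF1 loss. It was 1.41 for ACP4, 1.302 for CNTF, 1.29 for RASSF2 and 1.28 for C15orf62, with the higher value after NXF1 loss.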

How the results depend on the processing

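Of 1446 calls after NXF1 loss, between 1101 (1 fit over 60 libraries) and 1446 were shared with each alternative, and none was called in the opposite direction. The number called higher was 253 with library sizes alone, 650 with no filter, 252 with the CPM and FPKM filter and 257 in 1 fit over 60 libraries, against 389. With the replicate number as a block, 1713 genes were called, the interaction found 2370 genes against TPR loss, 4136 against the parental libraries and 2685 against GANP loss, and 48 genes were called between the parental libraries; no called gene named in the text was lost, and JUN and NEAT1 were gained. With 1 library left out, the interactions with TPR and GANP loss lay between 223 and 453 and between 257 and 461, and the parental calls between 7 and 19. The cause of these changes was not tested. In 1 fit over 60 libraries ZNF154, ZNF432, HOXA6, CEBPA, BBC3, BMF, CDKN1A, AREG, H4C9, NXT1, DUSP2, DUSP7, SNHG3, SNORD3B-1 and RNY1 missed a threshold. ZNF154, SPRY4 and DUSP7 did so in DESeq2, DUSP7 with RLE scaling, and ZNF432, HOXA6, SNHG3, SNORD3B-1 and EIF4A2 with library sizes alone. Of the tests here, 3 libraries against 3 cannot give an exact permutation p under 0.1.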

Other observations

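Values of some genes near AHR targets are given here; the genes were picked after their values were seen. On chromosome 3 (GRCh38) TIPARP (chr3:156673235-156706770) is followed by LEKR1 (chr3:156825481-157046129) and LINC02029 (chr3:157081738-157088547). In AID-NXF1 cells the log2 fold changes of auxin over untreated were 0.75 ± 0.15 for TIPARP, 1.4002 ± 0.13 for LEKR1 and 1.97 ± 0.27 for LINC02029 (SE). Between the parental libraries as labelled they were -1.77 ± 0.08, -0.39 ± 0.17 and -0.97 ± 0.20, and in AID-TPR cells 1.33, 0.44 and 1.49. On chromosome 15, CLK3 (chr15:74598500-74645414) and EDC3 (chr15:74630558-74696292) lie beside CYP1A1 (chr15:74719542-74725536). CLK3 gave 0.63 in AID-NXF1 cells and -0.57 between the parental libraries, where it was called, so it was taken out of the NXF1 calls. EDC3, which was not called after NXF1 loss, gave 0.04 (-0.02 to 0.09 with 1 library left out) and -0.57. The part of auxin itself in the rises of LEKR1 and LINC02029 after NXF1 loss was not tested.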
